A study of Mus musculus with 2 samples.

Results

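Among the cells of the early mouse foregut, pharynx and heart that descend from Mesp1-expressing mesoderm, one group carried Barx1 and Foxf1 together. Its members were selected on UMIs, the molecule counts of single cells: among cells that passed a minimum of 1000 genes detected and a limit of 10% mitochondrial UMIs, a member held at least 2 Barx1 UMIs, at least 1 Foxf1 UMI and 0 UMIs of Colec10 and of Wnt2. There were 675 members among 16780 kept cells. The library labelled Ctrl gave 256 of its 7007 cells and the library labelled cKO 419 of its 9773. Both libraries came from Swiss Webster embryos at E9.5, from the pharyngeal apparatus with the heart, sorted for GFP and against DAPI. The library labelled Ctrl was Mesp1Cre with the Rosa26-GFPflox/+ reporter, and the library labelled cKO carried in addition Tbx1flox/flox, which removes Tbx1 in cells with Mesp1Cre activity. Both therefore held the Cre driver and the GFP reporter, and only cells whose lineage had expressed Mesp1Cre could enter. By the study's summary of samples, the embryos of the library labelled cKO had more somites than those of the library labelled Ctrl, so stage differed with genotype. Each was 1 library per genotype from pooled embryos (a pair each, by the same summary), so no difference between the genotypes can be tested: the intervals given are exact 95% Poisson or Clopper-Pearson intervals that cover counting error only.

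Splanchnic mesoderm is the layer of lateral plate mesoderm that wraps the gut tube and also yields heart progenitors. Around the foregut it answers Hedgehog ligand from the endoderm, in part through Foxf1, and it later forms the smooth muscle and connective tissue of oesophagus, trachea, lung and stomach. Barx1 is a homeobox factor known from stomach mesenchyme and from pharyngeal arch mesenchyme, Fendrr is a long non-coding RNA transcribed away from Foxf1, and Hoxa5 marks foregut and lung mesenchyme.

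The promoters of 4 genes that lead the account below are shown to give the sequence around their starts, where Foxf1 and other forkhead factors could be looked for. Each runs from 250 bases before to 50 bases after the start on GRCm38 (RefSeq, GRCm38.p6), 5′ to 3′ on the gene's strand, with capitals marking the forkhead letters GTAAACA on either strand. They are Barx1 at chr13:48662786-48663085 on the plus strand, Fendrr at chr8:121083061-121083360 on the minus strand, Hoxa5 at chr6:52204538-52204837 on the minus strand, and Ifitm1 at chr7:140967826-140968125 on the plus strand, the gene with the largest ratio in the members.
Barx1: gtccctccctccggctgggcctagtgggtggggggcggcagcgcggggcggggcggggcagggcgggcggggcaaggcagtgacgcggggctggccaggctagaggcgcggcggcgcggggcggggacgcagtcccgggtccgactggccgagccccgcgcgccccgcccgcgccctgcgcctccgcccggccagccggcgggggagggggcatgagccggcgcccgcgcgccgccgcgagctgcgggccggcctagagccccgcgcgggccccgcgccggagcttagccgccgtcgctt
Fendrr: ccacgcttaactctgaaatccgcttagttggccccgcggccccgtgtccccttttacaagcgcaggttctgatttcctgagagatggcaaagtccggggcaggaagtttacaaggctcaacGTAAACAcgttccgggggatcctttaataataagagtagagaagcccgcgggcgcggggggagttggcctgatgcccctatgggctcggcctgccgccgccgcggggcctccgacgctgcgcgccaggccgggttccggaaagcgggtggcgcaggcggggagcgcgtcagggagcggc
Hoxa5: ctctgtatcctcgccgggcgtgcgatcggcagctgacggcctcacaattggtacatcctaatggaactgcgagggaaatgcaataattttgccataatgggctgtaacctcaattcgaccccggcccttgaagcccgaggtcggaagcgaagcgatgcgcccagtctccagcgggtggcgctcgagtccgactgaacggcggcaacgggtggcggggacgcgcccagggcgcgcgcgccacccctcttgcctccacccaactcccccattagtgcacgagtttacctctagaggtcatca
Ifitm1: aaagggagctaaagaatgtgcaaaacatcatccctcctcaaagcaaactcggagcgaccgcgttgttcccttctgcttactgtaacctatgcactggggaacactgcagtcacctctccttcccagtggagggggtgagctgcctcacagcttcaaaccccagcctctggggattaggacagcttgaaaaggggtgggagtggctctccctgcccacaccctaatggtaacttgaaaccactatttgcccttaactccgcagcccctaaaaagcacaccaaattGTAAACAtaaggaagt
The forkhead letters began 129 bases before the start of Fendrr and at base 35 from the start of Ifitm1, and were not in the windows of Barx1 and Hoxa5. Of 32851 promoters of that length, 3.65% held them. None of the 4 windows held AGGTGTGA, a T-box motif present in 1.28% of promoters, or ACCACCCA, a GLI motif present in 1.48%, on either strand, and none of the 3 motifs overlapped another. Of the 15 genes named below by size in the members, 10 had a promoter sequence. Among these 10, 1 held the forkhead letters (Ifitm1), 1 the T-box motif (Smco4) and 0 the GLI motif. The GC content was 84.7% for Barx1, 64.7% for Fendrr, 61.7% for Hoxa5 and 51.3% for Ifitm1. Fendrr (chr8:121054882-121083110) and Foxf1 (chr8:121084386-121088154) lay 1275 bases apart.

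The kept cells had a median of 17308 UMIs in the library labelled Ctrl and 14684 in the library labelled cKO, and the members 18143 and 14705. The UMIs of the members summed to 4950212 and 6999438. The libraries shared 15 barcodes, none of them a member in either. Haemoglobin UMIs made up 0.00111% of the kept cells' UMIs in the library labelled Ctrl and 1.06% in the other. In the members they made up 2.02e-05% and 0.372%, and 1 member of the library labelled cKO held 12112 of them. Cells with Xist and no Y-linked UMIs were 130 of the members in the library labelled Ctrl and 282 in the library labelled cKO, against 101 and 88 with Y-linked and no Xist UMIs, so cells of both sexes were present and their proportions differed between the libraries.

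Barx1 UMIs were missing from most Foxf1 positive cells. Of the cells with Foxf1 and without Colec10 and Wnt2, 74.2% (71.6 to 76.6) of 1201 in the library labelled Ctrl and 63.0% (60.4 to 65.6) of 1395 in the library labelled cKO had no Barx1 UMI. At the edge of the rule, 54 and 97 cells had 1 Barx1 UMI and were left out, and 21 and 41 had 2 and were taken. At 12 or more lay 157 and 255 cells. The median member held 15.5 Barx1 UMIs in the library labelled Ctrl and 15 in the other, with a highest count of 81 and 65. For Foxf1 the medians were 5 and 3, with 19 and 85 members at the minimum of 1 UMI, and 69 and 160 cells with 2 or more Barx1 UMIs fell outside for lack of a Foxf1 UMI. A Wnt2 UMI alone left out 93 and 141 cells that met both minimums, a Colec10 UMI alone 92 and 116, and both together 22 and 32. Because these counts chose the members, they are given as description only.

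**Figure D1:**
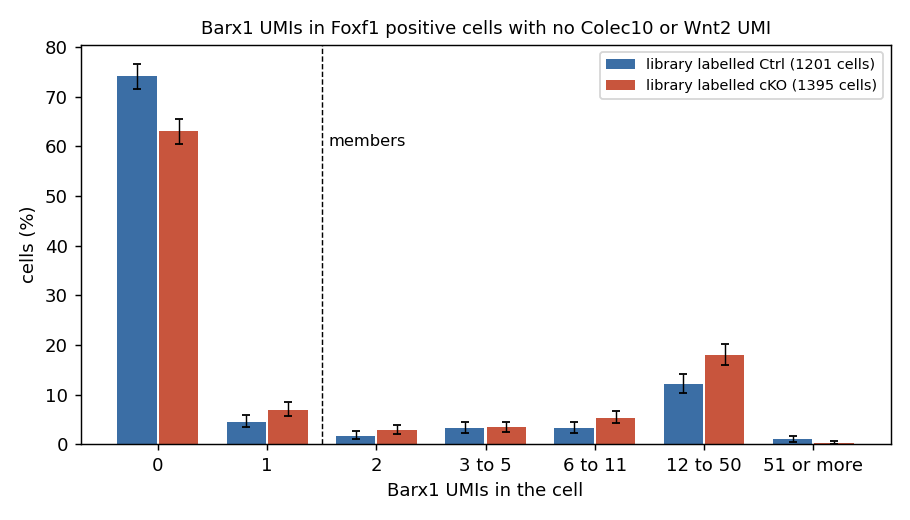
Share of Foxf1 positive cells without Colec10 and Wnt2 UMIs (vertical axis, percent, from 0) by the number of Barx1 UMIs in the cell (horizontal axis), for the 1201 cells of the library labelled Ctrl and the 1395 of the library labelled cKO; bars carry exact 95% binomial intervals and the dashed line marks the start of the members. Most cells had none, at 74.2% and 63.0%. The bins of UMIs differ in width, so the heights of the other bars cannot be compared per UMI.

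Barx1 and Foxf1 were required by the rule, so of the label's markers Hoxa5 and Fendrr were left to check it. Levels, here and below, are CPM of the UMIs summed over cells. Hoxa5 was at 135 CPM (125 to 146) in the library labelled Ctrl and 99.2 CPM (91.9 to 107) in the library labelled cKO, against 37.2 and 24.9 CPM in all other kept cells. Fendrr was at 46.3 CPM (40.5 to 52.7) and 22.7 CPM (19.3 to 26.5), against 12.5 and 4.46 CPM in the other cells. Against Foxf1 positive cells without Barx1, Hoxa5 was past 2-fold in both libraries, with 30.3 and 29.9 CPM in those cells, and Fendrr in neither, with 32.5 and 12.5 CPM there. The stomach factor Nkx3-2 and the lung mesenchyme factor Tbx4 were at or under the level of 3 UMIs, which is 0.606 CPM in the members of the library labelled Ctrl and 0.429 CPM in those labelled cKO: Nkx3-2 was at 0.202 and 0.429 CPM and Tbx4 at 0.606 and 0.143 CPM. The gut factor Nkx2-3 had 3 and 24 UMIs in the members, or 0.606 and 3.43 CPM (2.20 to 5.10 in the library labelled cKO).

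Defining genes of other cell types were looked for in the members. Of 8 neural crest genes, Sox10, Foxd3, Ret and Tfap2b had no UMI in either library's members. The 8 summed to 16.6 and 14.6 CPM in the members, not far below the 18.4 and 18.2 CPM of the Foxf1 positive cells without Barx1. In all other cells they summed to 21.5 and 19.0 CPM. Of 12 foregut endoderm genes, Cdh1, Shh and Nkx2-1 were at 0 in both, while the keratin Krt18 was at 99 and 161 CPM and Epcam at 16.0 and 9.72 CPM. The 12 summed to 165 and 262 CPM in the members, above the 88.6 and 159 CPM of the Foxf1 positive cells without Barx1 and the 111 and 151 CPM of all other cells. Of 10 endothelial genes, 9 and 8 were under 5 CPM, with the adhesion molecule Cdh5 at 0.202 and 1.29 CPM. Cardiomyocyte genes had a summed level of 673 and 798 CPM, against 308 and 829 CPM in the Foxf1 positive cells without Barx1 and 1934 and 3223 CPM in the other cells. In the library labelled Ctrl the members thus lay above the Foxf1 positive cells without Barx1. Of the members, 4 of 256 and 5 of 419 held at least 5 UMIs each of Tnnt2 and Myl7, and the doublet caller marked all 4 and 4 of the 5. In the library labelled Ctrl 3 cells held 210 of the 229 Ttn UMIs. In the library labelled cKO 3 cells held 411 of the 844 Myl4 UMIs, which were found in 131 cells, and 140 of the 267 Tnnt2 UMIs, found in 71. The haemoglobin and other erythroid genes summed to 0.202 and 3670 CPM, and the muscle regulator Myod1 was at 0 in both.

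Compared with Foxf1 positive cells that had no Barx1, Colec10 or Wnt2 UMI (891 and 879 cells), the members were set apart by Ifitm1, by Hoxa4 and Hoxa5 and by the transcription factors Tox3 and Isl1, among others. Of 5357 genes that reached, in each library, 20 CPM in either population and 30 UMIs over both, 34 were at least 2-fold higher in the members in both libraries (0.635%) and 78 at least 2-fold lower (1.46%). The members were chosen on Barx1 in the same cells, so these are marker genes and no test. Levels in cells with Foxf1 and at least 2 Wnt2 UMIs but no Barx1 UMI (581 and 637 cells), Wnt2 being a ligand of cardiopulmonary mesoderm, are given beside them.

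Ifitm1, of the interferon-induced transmembrane family, was at 520 CPM (500 to 540) and 372 CPM (358 to 386) in the members, against 63.3 and 54.7 CPM in the Foxf1 positive cells without Barx1. The log2 ratios were 3.04 (2.93 to 3.14) in the library labelled Ctrl and 2.77 (2.65 to 2.88) in the library labelled cKO, the highest of the 15 genes named by size. Tox3, an HMG-box factor, was at 190 CPM (178 to 203) and 128 CPM (120 to 137), against 32.8 and 25.4 CPM. Isl1, the LIM homeobox factor of second heart field progenitors that also acts in foregut mesenchyme, was at 224 CPM (211 to 237) and 186 CPM (176 to 197), against 71.1 and 37.7 CPM. It was higher in the members than in the cells with Wnt2 as well, at 115 and 78.3 CPM. Ccnd2, a D-type cyclin, was at 1253 and 711 CPM against 557 and 315 CPM, a log2 ratio of 1.17 in both libraries, while its relative Ccnd1 did not stand apart, with 183 and 146 CPM against 181 and 157 CPM. Others named were Hoxa4, Hoxa5, Dpysl3, Tmem158, Smco4, Tle4, Bex1, Gcat, Bex4 and Nrk, whose smaller log2 ratio of the 2 libraries ran from 0.95 to 2.08. Of the 34 higher genes, 32 were also higher than in the cells with Wnt2 in both libraries, but only 14 at least 2-fold. Against those cells the log2 ratios were 2.55 and 2.69 for Ifitm1. They were 0.55 and 0.68 for Dpysl3, 0.51 and 0.38 for Bex1, 0.49 and 0.45 for Bex4 and 0.40 and 0.97 for Nrk. Bex1, Bex4 and Nrk lie on chromosome X.

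**Figure D2:**
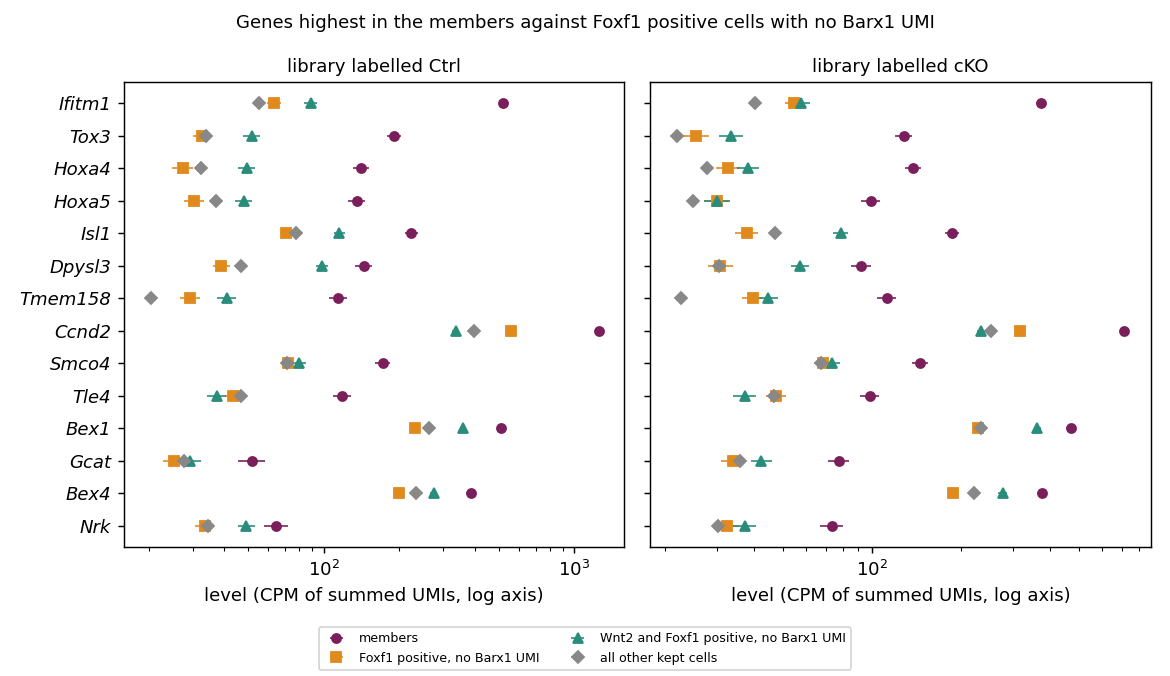
Levels of genes named for a large ratio over Foxf1 positive cells without Barx1 (horizontal log axis, CPM of summed UMIs, with exact 95% Poisson intervals) in the members, those cells, the cells with Wnt2 and Foxf1, and all other kept cells of each library. The members lie to the right in both libraries, from 51.7 CPM (Gcat) to 1253 CPM (Ccnd2) in the library labelled Ctrl.

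Per cell, shares with a UMI were taken after each cell was thinned to 5000 UMIs, which left out 4 members of the library labelled cKO and none of the other. Ifitm1 had a UMI in 87.9% (83.3 to 91.6) of members of the library labelled Ctrl and 75.4% (71.0 to 79.5) of those labelled cKO, against 21.0% and 19.2% of the Foxf1 positive cells without Barx1. Without thinning it was in 98.0% and 92.1% of members. Endothelial cells, chosen on Cdh5 and Pecam1 as cells that should lack these genes, had an Ifitm1 UMI in 7.22% and 6.32%, at median depths of 17875 and 15028 UMIs. Hoxa5 was in 44.5% (38.3 to 50.8) and 37.6% (32.9 to 42.4) of members, against 12.3% in both libraries of the Foxf1 positive cells without Barx1 and 7.60% and 6.32% of endothelial cells. Isl1 was in 55.5% (49.2 to 61.7) and 54.2% (49.3 to 59.1) of members, against 21.4% and 12.2% of the Foxf1 positive cells without Barx1, 36.3% and 29.8% of the cells with Wnt2, and 5.32% and 4.74% of endothelial cells. Fendrr was in 23.0% (18 to 28.7) and 13.3% (10.1 to 16.9) of members, against 12.4% and 5.18% of the Foxf1 positive cells without Barx1 and 13.6% and 6.46% of the cells with Wnt2. In endothelial cells Fendrr was in 0.760% and 0 of 253 cells, which allows up to 1.19% at 3 counts (exact upper bound 1.45%). Wnt5a was in 4.69% (2.45 to 8.04) and 4.10% (2.40 to 6.48) of members. In endothelial cells it was in 6.84% (4.11 to 10.6) and 1.98% (0.645 to 4.55). The members thus lay below that background in the library labelled Ctrl and above it in the other, with overlapping intervals. In the Foxf1 positive cells without Barx1 it was in 33.0% and 12.1%.

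Of 28 Hox genes, 10 reached the floor and 3, Hoxa4, Hoxa5 and Hoxc4, were at least 2-fold higher in both libraries, beside 0.635% of all counted genes. Hoxa4 (chr6:52189682-52191703) was at 141 and 138 CPM against 27.3 and 32.6 CPM, and Hoxc4 at 37.6 and 32.6 CPM against 6.63 and 6.60 CPM. Hoxb5 came close, with log2 ratios of 1.43 and 0.96. Hoxb2 was at 148 and 141 CPM against 134 and 142 CPM, Hoxb3 at 56.6 and 24.9 CPM against 64.2 and 33.5 CPM, and Hoxb1, a posterior heart field gene, at 94.9 and 62.3 CPM against 69.0 and 61.7 CPM. The median log2 ratio of the 10 was 0.49 and 0.36, beside 0.03 and 0.01 for all genes.

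Of 25 gut mesenchyme factors 16 were counted. At least 2-fold higher in both libraries were 4, Isl1, Gata4 and Hlx among them, beside 0.635% of all counted genes. Sox9 was at least 2-fold lower, beside 1.46% of all counted genes. Gata4, a zinc finger factor of heart and foregut mesoderm, was at 54.9 and 46.6 CPM against 11.1 and 13.6 CPM, yet near the 61.1 and 45.5 CPM of the cells with Wnt2. Hlx, a homeobox factor of visceral mesenchyme, was at 25.0 and 25.1 CPM against 7.90 and 12 CPM. The relative Gata6 was at 134 and 118 CPM against 72.3 and 62.7 CPM, and the nuclear receptor Nr2f2 at 496 and 295 CPM against 275 and 229 CPM, both short of 2-fold. Sox9, a factor of cartilage and airway progenitors, was at 23.8 and 19.9 CPM against 141 and 81.0 CPM. The cofactors Meis1 and Meis2 and the shared splanchnic factors Osr1 and Tcf21 were within 2-fold in both libraries.

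Of the signalling lists, the Hedgehog targets were present in the members at about the level of the Foxf1 positive cells without Barx1. Beside the list counts that follow, 0.635% of all counted genes were at least 2-fold higher in both libraries and 1.46% at least 2-fold lower. Ptch1, the receptor and target, was at 209 CPM (197 to 222) and 125 CPM (117 to 134) against 249 and 141 CPM, and 101 and 58.3 CPM in all other cells. Gli1, the other direct readout, was at 13.3 and 9.0 CPM against 16.0 and 8.85 CPM. None of the 4 counted genes of 13 was past 2-fold. Among Wnt genes the ligands Wnt4 and Wnt5a were lower in the members: Wnt4 was at 15.4 and 16.1 CPM against 81.4 and 110 CPM, and Wnt5a at 15.4 and 9.57 CPM against 106 and 29.0 CPM. Of the 10 Wnt antagonists 2 were counted, Sfrp1 and Sfrp2, neither past 2-fold in both. Of 18 BMP genes 7 were counted and Bmp4 was lower, at 16.4 and 14.7 CPM against 47.6 and 34.6 CPM, and against 119 and 96.1 CPM in the cells with Wnt2. Of 16 FGF genes 4 were counted and Etv1, an ETS factor downstream of FGF, was higher, at 41.8 and 32.7 CPM against 15.3 and 11.8 CPM. In the retinoic acid list 2 of 9 were at least 2-fold lower in both libraries, beside 1.46% of all counted genes, and both code for enzymes of the synthesis pathway. Aldh1a2 was at 87.3 and 44.4 CPM against 183 and 148 CPM, and Rdh10 at 12.5 and 8.0 CPM against 69.2 and 30.2 CPM. Tbx5, of the posterior heart field and lung lists, was at 14.5 and 6.14 CPM against 47.8 and 36.9 CPM, and at 115 and 70.2 CPM in the cells with Wnt2. Cldn11, a tight junction gene of the posterior heart field list, was at 1.21 and 2.71 CPM against 43.5 and 27.2 CPM.

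Among the lower genes were matrix, contractile and adhesion genes. Of 18 counted matrix genes 9 were at least 2-fold lower in both libraries and none higher, beside 1.46% and 0.635% of all counted genes, with medians of -1.09 and -1.07 beside 0.03 and 0.01. Col1a1 was at 13.1 and 16.0 CPM against 60.3 and 65.0 CPM, and Vcan, a large proteoglycan, at 192 and 150 CPM against 446 and 380 CPM. Against the same 1.46%, of 8 counted smooth muscle genes 4 were lower, among them Tagln at 35.1 and 34.9 CPM against 141 and 214 CPM. Of 18 adhesion and guidance genes 5 were lower, with the chemokine Cxcl12 at 27.1 and 30 CPM against 195 and 155 CPM. The others named by size at that end were Sparcl1, Foxd1, Foxc1, Col9a1, Lix1, Pdlim4, Hapln1, Ebf1, Prrx1 and Has2. Of the 4 somatic mesoderm genes counted 3 were lower. Of 26 cell cycle genes only Ccnd2 was past 2-fold in both libraries, and the list's medians were 0.06 and 0.03.

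The members were not uniform. After the Barx1 counts had been seen, they were divided at 12 UMIs, which put 61.3% (55.1 to 67.3) of the members of the library labelled Ctrl and 60.9% (56.0 to 65.6) of those labelled cKO in the upper part. The median depth was 18216 and 15261 UMIs in the upper part and 16737 and 13535 in the lower. Of 5334 genes above the floor, 3 were at least 2-fold higher in the upper part in both libraries (0.0562%) and 34 at least 2-fold lower (0.637%). As depth and Barx1 counts go together, this is a description.

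Members rich in Barx1 held more Isl1, at 282 and 236 CPM against 126 and 105 CPM in the members with 2 to 11 UMIs, and more Tmem158, at 142 and 146 CPM against 66.7 and 57.0 CPM. The receptor Pdgfra was at 236 and 128 CPM against 95.4 and 75.0 CPM, Osr1 at 79.8 and 72.7 CPM against 47.2 and 30.4 CPM, and Ptch1 at 236 and 147 CPM against 164 and 90.0 CPM. The third gene past 2-fold was Scd1, a fatty acid desaturase, at 24.5 and 27.0 CPM against 9.76 and 12 CPM. Hoxa5 was at 140 and 98.5 CPM in the upper part against 127 and 100 CPM, and Hoxa4 at 146 and 148 CPM against 132 and 121 CPM. For Hoxa4 the log2 ratios were thus 0.14 (-0.08 to 0.37) and 0.29 (0.09 to 0.48).

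Members with 2 to 11 Barx1 UMIs held more Foxd1, Aldh1a2, Itm2a, Nrp1 and Dlk1. Foxd1 was at 54.2 and 63.0 CPM against 19.6 and 17.5 CPM in the upper part, and at 171 and 184 CPM in cells without Barx1, so the lower part lay between. Of the 34 genes higher in the members than in the cells without Barx1, 22 had the lower part between the other groups in both libraries, and of the 78 lower genes 69 did. The members' level is the mean of its parts, so this is no independent evidence. Other genes did not follow that order. Nrp1, a receptor for semaphorins and VEGF, was at 144 and 104 CPM in the lower part, above both the upper part (43.1 and 39.2 CPM) and the cells without Barx1 (116 and 87.7 CPM). Dlk1 was at 369 and 494 CPM in the lower part against 128 and 212 CPM and 222 and 408 CPM. Rspo3, a secreted enhancer of Wnt signalling, was at 81.9 and 42.0 CPM in the lower part against 29.3 and 13.2 CPM. The sarcomere genes Actc1, Myl3 and Tnnc1 were also among the lower genes of the upper part, but without the 4 and 5 members that carried cardiomyocyte UMIs the log2 ratio of Actc1 was 0.02 and -0.25 and that of Myl3 0.80 and 0.36. Other sarcomere genes were still lower in the upper part without those cells: Tnni1 had -1.51 and -1.53, and -1.83 and -1.44 without presumed doublets, and Myl4 had -0.89 and -0.71, and -0.96 and 0.07 without presumed doublets. Tagln, a smooth muscle gene, had log2 ratios of -2.85 and -1.79, which were -1.08 and -1.94 without the members that carried cardiomyocyte UMIs. Without the presumed doublets Tagln was at 8.79 and 11.8 CPM in the upper part and 15.9 and 19.5 CPM in the lower, short of 2-fold at -0.86 and -0.73. The ratios of Isl1, at 1.13 and 1.18, and of Nrp1, at -1.76 and -1.51, were past 2-fold without the members that carried cardiomyocyte UMIs, as they were without presumed doublets, at 1.17 and 1.06 and at -1.90 and -1.73.

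**Figure D3:**
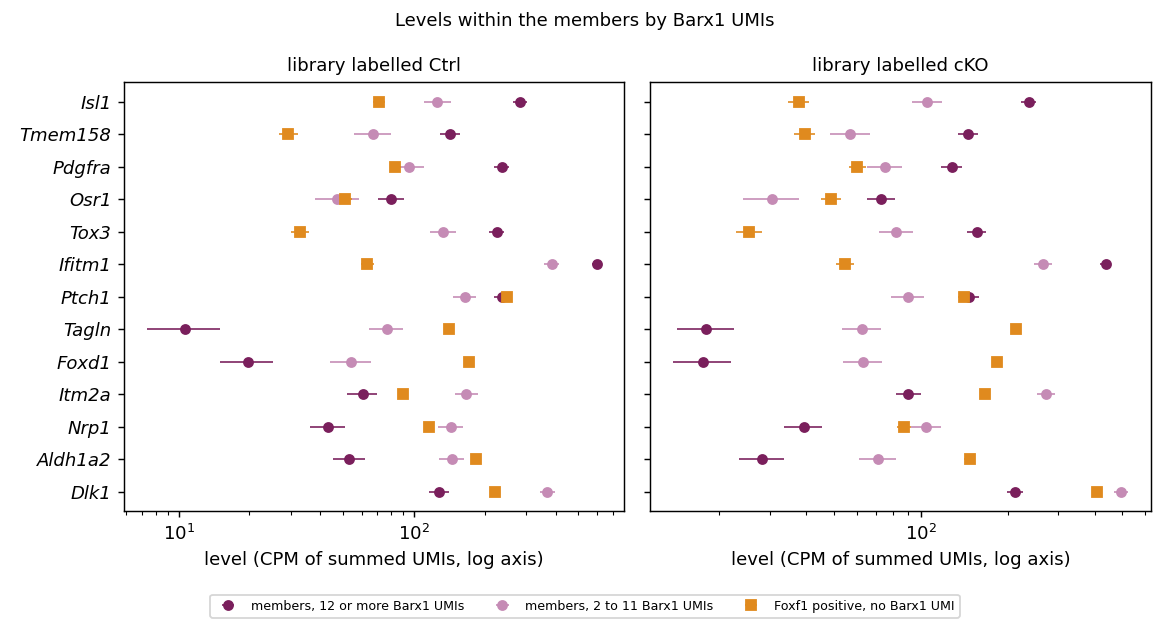
Levels (horizontal log axis, CPM of summed UMIs, with exact 95% Poisson intervals) of 13 genes in members with 12 or more Barx1 UMIs, members with 2 to 11, and Foxf1 positive cells without Barx1, for each library. Isl1, Tmem158, Tox3 and Ifitm1 step down from the first group to the last, Foxd1 steps up, and Itm2a, Nrp1 and Dlk1 were highest in the middle group. Tagln is drawn with all members; without presumed doublets its log2 ratio of the first group over the middle one was -0.86 and -0.73.

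The members made up 3.65% (3.23 to 4.12) of kept cells in the library labelled Ctrl and 4.29% (3.89 to 4.71) in the library labelled cKO, a ratio of 1.17 (1.01 to 1.37). The order depended on the cells counted. Among cells with Xist and no Y-linked UMIs the shares were 3.71% (3.11 to 4.39) of 3506 and 5.23% (4.65 to 5.86) of 5390, and among cells with Y-linked and no Xist UMIs 3.71% (3.03 to 4.49) of 2723 and 3.06% (2.46 to 3.76) of 2876, so the share in the library labelled cKO was higher in the first, with a ratio of 1.41 (1.15 to 1.73), while in the second the ratio was 0.825 with a counting interval that held 1 (0.623 to 1.09). With 2 Foxf1 UMIs required the shares were 3.38% and 3.42%, a ratio of 1.01 (0.858 to 1.19). The interval also held 1 without presumed doublets (0.972 to 1.33) and without the condition on Colec10 and Wnt2 (0.979 to 1.23). So it did with 3 Barx1 UMIs required (0.983 to 1.35) and with 12 (0.957 to 1.42). It left out 1 with 1 Barx1 UMI required (1.04 to 1.37) and over all barcodes (1.01 to 1.38). After thinning to 5000 UMIs the shares were 2.70% and 3.35%, a ratio of 1.24 (1.04 to 1.48). Each pool was a pair of embryos and held both sexes, so the cells of a sex came from 1 embryo in each library. With 1 pool per genotype, the genotype, the single embryos, their sexes and stages, and the dissection cannot be told apart.

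**Figure D4:**
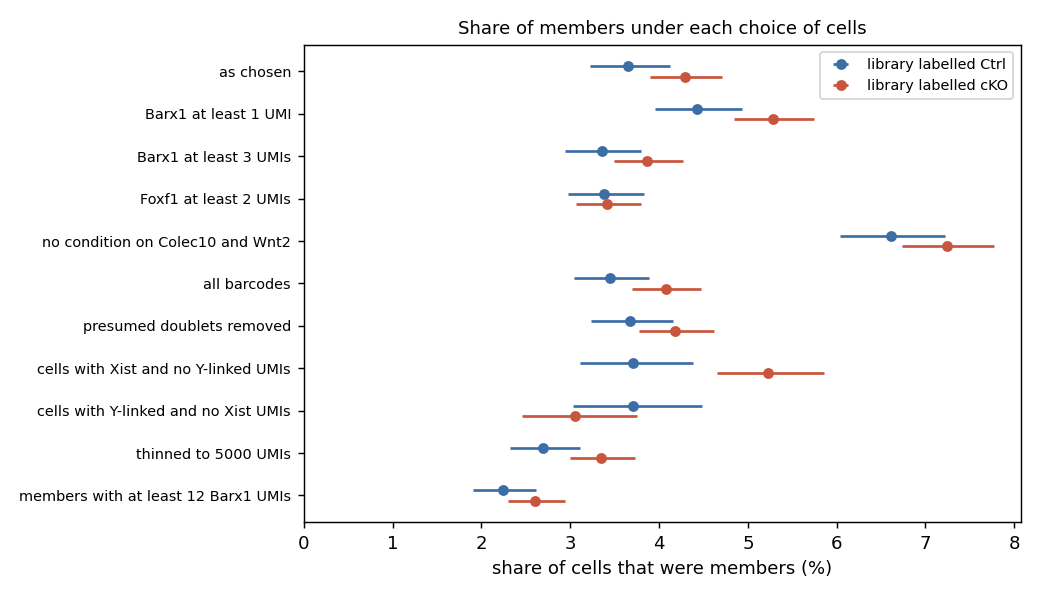
Share of cells that were members (horizontal axis, percent, with exact 95% binomial intervals) in each library under the rule as chosen and each alternative choice of cells. The point of the library labelled cKO is to the right in all settings shown but the cells with Y-linked and no Xist UMIs, where it was 3.06% against 3.71%.

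Tbx1, the gene floxed in the library labelled cKO, was scarce in the members, with 14 UMIs or 2.83 CPM (1.55 to 4.75) in the library labelled Ctrl and 55 UMIs or 7.86 CPM (5.92 to 10.2) in the library labelled cKO. In all other kept cells it was at 27.9 and 45.7 CPM. The level was thus not lower in the library labelled cKO, and 3′ tags need not cover the floxed part, so Tbx1 does not check the labels here. After thinning it had a UMI in 0.391% and 0.964% of members, below the 3.04% and 1.58% of endothelial cells, against 11.9% and 16.5% of the Foxf1 positive cells without Barx1. The members' own Tbx1 therefore could not be told from background.

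Between the libraries, ratios in the members are given beside those in all other kept cells. Of 5786 genes above the floor of 20 CPM in either library and 30 UMIs in all, 30 were at least 2-fold higher in the members of the library labelled cKO (0.518%) and 48 at least 2-fold lower (0.83%). The median log2 ratio was -0.10, and -0.09 for the same genes in all other kept cells. The 30 included 5 haemoglobin genes.

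Ubb, a polyubiquitin gene, was at 103 CPM in the members of the library labelled Ctrl and 966 CPM in those labelled cKO, and at 103 and 906 CPM in the other cells. The log2 ratio of Ubb was 3.71 (3.53 to 3.91) in members with Xist and 1.28 (1.04 to 1.52) in those with Y-linked UMIs. Tpm3-rs7 was at 165 and 7.29 CPM, and at 168 and 6.99 CPM in the other cells. Phgdh, the first enzyme of serine synthesis, had a log2 ratio of 1.55 in the members and 1.42 in the other cells. Efnb2, an ephrin ligand, was at 88.3 and 31.9 CPM, with ratios of -1.47 and -1.44, and Fzd7, a Wnt receptor, at 67.5 and 30.9 CPM, with ratios of -1.13 and -1.15. Tshz1, Fat1, Hoxb3, Adamts1, Atad2, Hist1h4i, Nhs, Cbl, Zfp516, Clic4 and Gm5900 had ratios between -0.98 and -1.44 in the members and between -0.71 and -1.22 in the other cells. On the higher side Armc10, Gm10076, Gm10260, Hist1h2ap, Polr2l, Gm8730, Isyna1, Fdps, Eif4a1 and Rps26-ps1 had ratios from 0.87 to 2.11 in the members and from 0.68 to 2.12 in the other cells, among them ribosomal pseudogenes, whose reads can come from their parent genes.

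**Figure D5:**
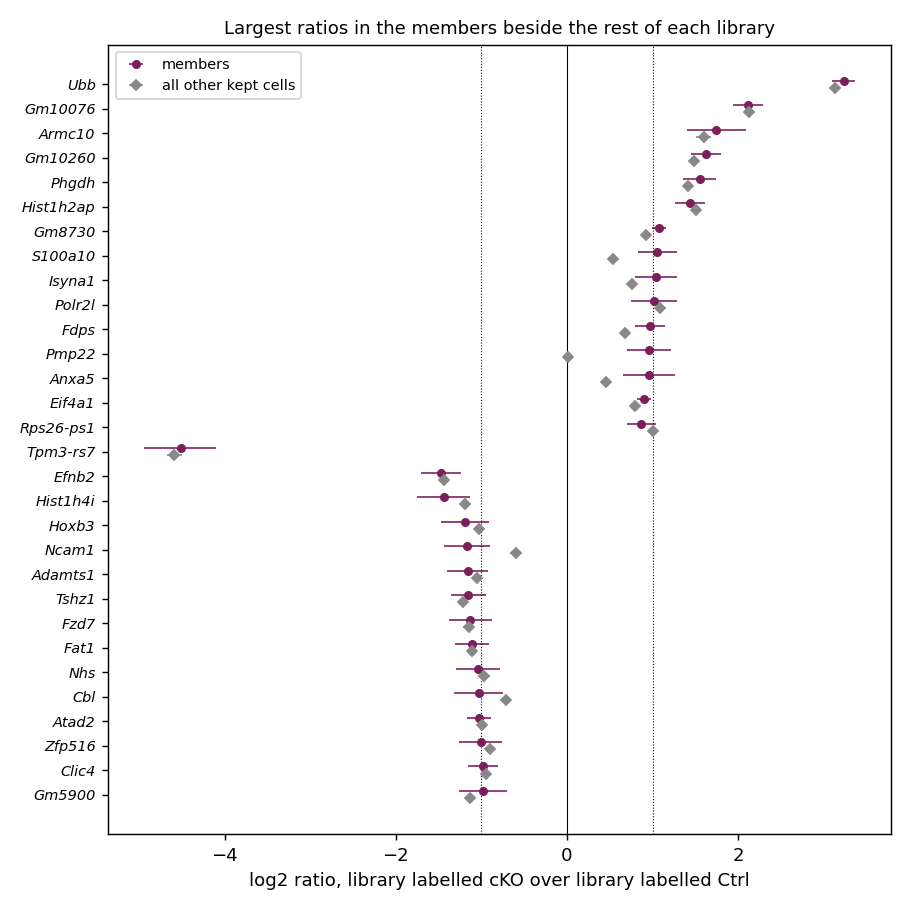
Log2 ratio of the library labelled cKO over the library labelled Ctrl (horizontal axis, 0 line solid and 2-fold dotted, with exact 95% conditional intervals) for the 30 genes named by size, in the members and in all other kept cells. The points of Pmp22 lie at 0.96 in the members and 0.01 in the other cells, and those of Ubb at the right end in both.

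A few of the genes named by size had a ratio in the members that was apart from that in the other cells. Pmp22, a membrane protein first known from myelin, was at 34.9 CPM (29.9 to 40.6) and 67.9 CPM (61.9 to 74.2) in the members, but at 56.0 and 56.3 CPM elsewhere. Its log2 ratio in the members was 0.95 (0.70 to 1.21) above that in the other cells. S100a10, a calcium-binding protein that pairs with annexins, was at 42.8 and 88.9 CPM, and Anxa5, an annexin, at 25.9 and 50.1 CPM, both about 0.5 above the ratio in the other cells. Ncam1, a neural cell adhesion molecule, was at 59.8 and 26.6 CPM, with a ratio of -1.17 against -0.60 elsewhere. Pmp22 was also higher in members with 2 to 11 Barx1 UMIs (53.7 and 114 CPM) than in those with 12 or more (23.8 and 39.2 CPM), and the library labelled cKO was the higher in each part.

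Among the label markers, Barx1, on which the members were selected, was at 978 and 979 CPM, and Foxf1 at 254 and 233 CPM. Fendrr had a log2 ratio of -1.03 (-1.33 to -0.73) in the members and -1.49 in the other cells, and Hoxa5 of -0.45 (-0.60 to -0.29) and -0.58. Of 16 counted gut factors none was past 2-fold, with a median of -0.26 in the members and -0.45 in the other cells. Isl1 had -0.26 in the members and -0.72 elsewhere. Hand2, a basic helix-loop-helix factor of heart and limb, was at 24.0 CPM (19.9 to 28.8) and 36.4 CPM (32.1 to 41.2) in the members, a ratio of 0.60, and had -0.19 elsewhere. Of the 11 counted Hox genes Hoxb3 was past 2-fold, at -1.19, beside 0.83% of all counted genes at least 2-fold lower. Of the 11, 10 had a ratio below 0, beside 61.0% of all counted genes. Hoxa4 had -0.04 (-0.18 to 0.11). Hoxb6 was at 21.2 and 13.0 CPM, a ratio of -0.71, with 0.53 elsewhere at only 2.67 and 3.87 CPM.

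In the signalling lists most ratios lay below 0 in members and other cells alike, as did 61.0% of all counted genes in the members. Ptch1, Gli3 and Smo, of the 4 counted Hedgehog genes, had intervals below 0 and Gas1, a co-receptor, was at 55.8 and 55.7 CPM. The list's median was -0.56 in the members and -0.63 in the other cells. Ptch1 had -0.74 (-0.87 to -0.61) and -0.79. In the Wnt list Rspo3 was at 48.9 CPM (42.9 to 55.4) and 24.1 CPM (20.6 to 28.1) in the members, a ratio of -1.02, and at 19.6 and 19.8 CPM elsewhere. Its ratio was -1.20 in members with Xist and -0.50 in those with Y-linked UMIs. Both Wnt antagonists had ratios below 0, with a median of -0.39. Of 6 BMP genes counted 4 lay above 0. Id1, an immediate target of BMP signalling, was at 206 CPM (194 to 219) and 288 CPM (276 to 301) in the members and at 307 and 317 CPM elsewhere. Among 6 retinoic acid genes Aldh1a2 had -0.97 (-1.19 to -0.76), with -0.81 elsewhere. Crabp2, a retinoic acid carrier, was at 44.6 and 68.7 CPM in the members but at 185 and 162 CPM in the other cells. Of the FGF list all 4 lay below 0, beside the same 61.0% of all counted genes, with a median of -0.43 and -0.71 in the other cells. Fgf10, a ligand of lung budding that lay just under the floor, had -0.54 (-0.96 to -0.12) in the members and -1.59 elsewhere. In members with Xist the ratio of Fgf10 was -0.21 (-0.75 to 0.35), and in those with Y-linked UMIs -1.40 (-2.37 to -0.51).

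Of 16 adhesion and guidance genes 3, Efnb2, Ncam1 and Sema3c, were at least 2-fold lower in the members of the library labelled cKO, beside 0.83% of all counted genes. The list's median was -0.63 in the members and -0.58 in the other cells. Of 8 smooth muscle genes none was past 2-fold. Of 12 matrix genes Adamts1 alone was, on the lower side, beside the same 0.83%, and Sparc, a collagen-binding matrix protein, was at 86.1 and 146 CPM. The 26 cell cycle genes had a median of -0.03 and none was past 2-fold. The 4 counted genes of the dissociation response, which tracks handling of the tissue, had a median of 0.16 in the members and 0.05 in the other cells. Of 15 genes that the study named in progenitors 4 were counted here and none was past 2-fold. Since the study chose that list on these samples, it is no independent evidence.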

How the data were processed

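The deposited matrices held UMI counts per gene and cell barcode, which the authors made with Cell Ranger 3.1.0 on mm10 per the labels and filtered to cells. The labels name the v2 kit, the study's methods v2 or v3.1, and which was used for these libraries is not settled. The members and the 26 gene lists were chosen with earlier results of these data known. Symbols listed on more than 1 row (56) were summed. UMIs were summed over the cells of each population and given as CPM, with exact Poisson intervals. Log2 ratios have exact conditional intervals, and differences of log2 ratios an approximate normal one. Genes had to reach 20 CPM in either population and 30 UMIs, and past 2-fold was the rule of size, since with 1 library per genotype no test is possible. The genes of the rule were left out of all counts. Named genes were those of the lists, the 15 largest ratios in each direction with at least 50 CPM and the same sign in cells with Xist and with Y-linked UMIs, and the 15 largest in the members over Foxf1 positive cells without Barx1, each without haemoglobin, mitochondrial, ribosomal protein genes, Xist, Tsix, Ddx3y, Eif2s3y, Kdm5d and Uty (other genes of chromosome X were kept). Genes named outside that rule, the 15 lowest against those cells and the genes of the division at 12 Barx1 UMIs included, were chosen after their values were seen. Shares of cells with a UMI were taken after thinning to 5000 UMIs. Scrublet (scanpy 1.11.5) scored doublets, and the highest scores, 0.8% per 1000 cells, were removed in 1 alternative (416 and 804 cells). Analyses ran in Python 3.11.15 with scipy 1.17.1, and the interval code was tested on simulated data. The members' depth makes 3 UMIs worth 0.606 and 0.429 CPM. RefSeq sequences were found for 10 of the 15 leading genes. Some genes of the lists and of the naming rule are not reported here.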

Additional observations from a re-analysis of the deposited data

Results flagged for a closer look

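The ratio of the share of members, library labelled cKO over library labelled Ctrl, lay on opposite sides of 1 in the sexes: it was 1.41 (1.15 to 1.73) among cells with Xist and no Y-linked UMIs and 0.825 (0.623 to 1.09) among cells with Y-linked and no Xist UMIs, where the counting interval held 1. The difference between the sexes was not tested, as each library holds 1 pool. That pool was a pair of embryos, so the cells of each sex came from 1 embryo and sex cannot be told apart from embryo.

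For 7 genes the log2 ratio in the members was above 0 in one sex and below 0 in the other, with counting intervals that left out 0 on both sides, and none of these differences was tested. Here too each sex was 1 embryo per library. In members with Xist and then in members with Y-linked UMIs the log2 ratios were -1.37 and 1.80 for Acta2, -2.22 and 2.26 for Actc1, -3.33 and 1.5 for Myl3, -1.02 and 1.09 for Myl4, -1.86 and 2.17 for Tnnt2 and -1.86 and 4.14 for Ttn, all contractile genes, and 0.32 and -0.20 for Cdkn1c, an inhibitor of the cell cycle. Of the Ttn UMIs in members with Xist of the library labelled Ctrl, 110 of 112 sat in 3 cells, and in its members with Y-linked UMIs 2 in all were found. Of the Actc1 UMIs the 3 highest members with Xist held 235 of 253. The members with at least 5 UMIs each of Tnnt2 and Myl7 numbered 2 among the 130 with Xist under the Ctrl label and 1 among the 282 under the cKO label, and 0 among those with Y-linked and no Xist UMIs in both.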

How the results depend on the processing

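The counts of genes past 2-fold depended on the floor, and the median shift of the libraries moved the split. Between the libraries' members, 30 genes were higher and 48 lower; with a floor of 10 CPM there were 50 and 113, and with 50 CPM 16 and 14. Centring on the median left 27 lower genes and turned the share of higher among those past 2-fold from 38.5% to 57.1%. Without the condition on Colec10 and Wnt2 42 were higher and 28 lower, so that 60% of those past 2-fold were higher. Among members with 12 or more Barx1 UMIs (a choice made after seeing the data) 105 were lower, and among members with Y-linked and no Xist UMIs 60 were higher and 254 lower, on 101 and 88 cells. Against Foxf1 positive cells without Barx1, 34 higher and 78 lower genes became 63 and 126 with a floor of 10 CPM and 13 and 34 with 50 CPM. Without presumed doublets they were 36 and 97, and the ratios of Hoxa4, Hoxa5, Isl1, Tmem158, Ccnd2, Bex1 and Bex4 in the library labelled cKO moved further above 0, past their counting intervals. The ratio of the shares of members, 1.17, became 1.41 in cells with Xist and no Y-linked UMIs and 0.825 (0.623 to 1.09), the other direction, in cells with Y-linked and no Xist UMIs; the cause was not tested. No paired analysis was possible because there was 1 library per genotype. For the same reason no replicate could be left out.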

Other observations

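Genes outside the lists were among the 34 that were at least 2-fold higher in the members than in Foxf1 positive cells without Barx1, and they are named here after their values were seen. Ntf3, a neurotrophin, was at 26.1 CPM in the members of the library labelled Ctrl and 22.9 CPM in those labelled cKO, against 5.68 and 9.0 CPM. Igfbp3, a carrier of insulin-like growth factors, was at 36 and 27.6 CPM against 9.60 and 8.42 CPM. Gata5, a relative of Gata4, was at 22.6 and 29.4 CPM against 11 and 14.2 CPM, but at 52.2 and 57.5 CPM in the cells with Wnt2 and Foxf1. Apela, a secreted peptide that binds the apelin receptor, was at 34.1 and 22.0 CPM, against 13.2 and 5.88 CPM.

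Markers of the other lists in the members were few above the floor. Of 10 epicardium and septum transversum genes 2 were counted between the libraries, with Wt1 at 18 and 11.1 CPM in the members. Of 8 paraxial mesoderm genes 1 was counted, and Pax1 was at 1.01 and 1.0 CPM. Of the 8 somatic mesoderm genes 2 were counted, with Twist1 at 65.5 and 83.4 CPM and Prrx1 at 17.0 and 18.3 CPM. Of 11 lung and cardiopulmonary mesenchyme genes 3 were counted, of 12 posterior heart field genes 5, all with ratios between the libraries below 0, beside 61.0% of all counted genes, and none past 2-fold, beside 0.83% of all counted genes at least 2-fold lower. Of the 8 counted cardiomyocyte genes 1 was at least 2-fold higher in the library labelled cKO, beside 0.518% of all counted genes. Of the 4 counted branchiomeric muscle genes none was past 2-fold, and the 4 counted erythroid genes were all higher in the library labelled cKO. The 2 counted endoderm genes, Krt8 and Krt18, had a median ratio of 0.78 in the members and 0.56 in the other cells, the 1 counted endothelial gene, Egfl7, had 0.51 and -0.01, and 0 neural crest genes reached the floor. Against Foxf1 positive cells without Barx1, Tbx18 of the epicardium list, Foxc2 of the paraxial list and Prrx1, Prrx2 and Irx3 of the somatic list were at least 2-fold lower in both libraries.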
